A study of Mus musculus with 6 samples.

Results

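The miR-200, miR-141 and miR-429 family of mouse brain comprises 5 hairpins in 2 genomic clusters, and 10 of the 1055 mature miRNAs in the deposited read tables belong to it. Members were chosen by their miRNA name alone, as both arms of miR-200a, miR-200b, miR-200c, miR-141 and miR-429. This gave 6 entries from the cluster of miR-200b, miR-200a and miR-429, called the miR-200b cluster here, and 4 from the cluster of miR-200c and miR-141, called the miR-200c cluster. The family as such was picked with its reads in these libraries already known, so its levels and their pattern over the libraries are given as a description. Small RNAs of 19 to 25 nucleotides were sequenced from whole brains of 3 wild-type and 3 Adar2-/- mice, adult 129SV females aged 5.5 months that were siblings from heterozygous crosses. Both genotypes carried the pre-edited Gria2 R/R allele, which keeps Adar2-/- mice alive, so the controls are not unmodified mice. Adar2 encodes an adenosine deaminase that converts adenosine to inosine in double-stranded RNA, and the comparison asks how its loss affects the abundance of mature miRNAs. Each brain gave 1 library on its own sequencing lane, so lane and brain cannot be told apart. The p-values therefore measure the spread between these libraries, brain and lane together. Values are given as reads per 1000000 reads that mapped to miRNAs in that library (RPM), and values of a genotype stand in the order of replicates 1 to 3.

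miR-200 family miRNAs are known from epithelia, where they repress the transcription factors Zeb1 and Zeb2 and so help to maintain E-cadherin and the epithelial state. In the nervous system the family is best known from the olfactory system, where it takes part in the differentiation of neuronal precursors. Each hairpin yields a guide strand from its 3′ arm, which does most of the repression, and a star strand from its 5′ arm, which is mostly degraded. A miRNA finds its targets mainly through its seed, bases 2 to 8 counted from 1 at the 5′ end.

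The guide strands are shown first because both seeds of the family occur in both clusters, so that genomic origin and seed can be told apart. The sequences are those of RefSeq (GRCm38.p6), in which all 10 members were matched, with the seed in capitals:
miR-200b: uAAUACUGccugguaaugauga
miR-429: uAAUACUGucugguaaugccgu
miR-200c: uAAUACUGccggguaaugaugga
miR-200a: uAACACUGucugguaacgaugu
miR-141: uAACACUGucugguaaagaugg
The first 3 guide strands share the seed AAUACUG and the other 2 share AACACUG, which differ by the single substitution U4C. Among the 1679 mature miRNAs of the RefSeq table, 3 hold the first seed and 2 the second, and all 5 are these guide strands.

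The star strands of the miR-200b cluster that had enough reads to be compared are shown because they did not keep to the level of their guides:
miR-200b*: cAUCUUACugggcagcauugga
miR-200a*: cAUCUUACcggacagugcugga
Both start with the same seed, AUCUUAC, and differ at 5 of 22 positions.

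The closest relatives by sequence lie in different clusters. miR-200b and miR-200c differ over their 22 shared positions by U11G and A22G, and miR-200a and miR-141 by C17A and U22G. The other 8 pairs of guide strands differ at 4 or 5 positions. Reads were mapped with at least 90% identity, roughly 2 mismatches, so a read with sequencing errors or trimmed ends could be assigned to the relative in the other cluster, and its part in the values was not tested. Outside the family, the nearest mature miRNA of the RefSeq table was 7 or 8 edits away from every member.

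On NCBIM37, the build that matches the mm9 of the labels, each of the 10 mature sequences was found unchanged within its annotated hairpin. The miR-200b cluster spans 1846 bp of the minus strand of chromosome 4. Mir200b lies at 155429790 to 155429859, Mir200a at 155429005 to 155429094 and Mir429 at 155428014 to 155428096. All of these hairpins lie in introns of the protein-coding gene Ttll10 on the same strand, and Mir429 also overlaps an exon of the transcript Gm13648. The miR-200c cluster spans 477 bp of the minus strand of chromosome 6, with Mir200c at 124668340 to 124668408 and Mir141 at 124667932 to 124668003. Both lie in an intron of the transcript Gm15884, and the nearest protein-coding genes are Phb2 at 964 bp and Ptpn6 at 2317 bp.

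The libraries held 12449633 to 23935544 mapped miRNA reads. For the labelled tissue, miR-124, miR-9 and miR-128, which are known from neurons, summed to 113094 to 166115 RPM in the wild-type and 121979 to 125876 RPM in the Adar2-/- libraries. Adar2-/- replicate 3 stood apart in the family described here, and comparisons of the genotypes are given with and without it. Adar2 mRNA was not analysed here, and the genotype labels were taken as given.

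All members together made up 0.646%, 0.520% and 0.489% of the reads on miRNAs in the wild-type libraries and 0.931%, 0.523% and 0.0754% in the Adar2-/- libraries. The last value has a 95% Wilson interval of 0.0743% to 0.0765%, which covers counting error only. Adar2-/- brains thus held both the highest and the lowest level of the family, with the wild-type brains in between and Adar2-/- replicate 2 among them. The summed level had a wild-type mean of 5515 ± 833 RPM and an Adar2-/- mean of 5098 ± 4280 RPM (SD, n = 3 each). The ratio of these means was 0.924, and it was 1.32 without Adar2-/- replicate 3. In bulk tissue, fewer cells that make the family and less miRNA per cell cannot be told apart.

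miR-200b, the most abundant member, stood at 2586, 2345 and 2326 RPM in wild type and at 4160, 2574 and 348 RPM in Adar2-/-. Its neighbour in the same cluster with the same seed, miR-429, stood at 2062, 1970 and 1858 RPM in wild type and at 3512, 1626 and 231 RPM in Adar2-/-. The wild-type values of both lay close together, whereas their Adar2-/- values spread far beyond them, from well above in replicate 1 to well below in replicate 3. miR-200a, which carries the other seed but lies between them in the genome, stood at 109, 104 and 92.5 RPM in wild type and at 174, 112 and 18.7 RPM in Adar2-/-. The Adar2-/- brains stood in the same order as for miR-200b, at a far lower level.

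In the miR-200c cluster, miR-200c stood at 1140, 473 and 366 RPM in wild type and at 967, 607 and 94.2 RPM in Adar2-/-. miR-141 stood at 370, 227 and 140 RPM in wild type and at 397, 221 and 46.5 RPM in Adar2-/-. Unlike the guides of the other cluster, both already varied among wild-type brains, with wild-type replicate 1 well above the other two.

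Of the star strands, miR-200b* stood at 100.0, 36.6 and 51.0 RPM in wild type and at 36.8, 47.2 and 7.23 RPM in Adar2-/-. miR-200a* stood at 73.3, 39.5 and 49.6 RPM in wild type and at 56.2, 37.9 and 7.39 RPM in Adar2-/-. Their highest level was in wild-type replicate 1, whereas the guides of these same hairpins had theirs in Adar2-/- replicate 1. The remaining star strands were rare. miR-141* had 220, 60 and 111 reads in wild type and 139, 107 and 18 in Adar2-/-. miR-200c* had 24, 7 and 8 reads in wild type and 5, 2 and 5 in Adar2-/-, and was the only member whose RPM values did not overlap between the genotypes, at 0.307 to 1.93 RPM against 0.0848 to 0.268 RPM. With no minimum of reads, 7.58% of the 1042 miRNAs with a read had such a separation. Of the 399 miRNAs with at least 100 reads in each library, which do not include miR-200c*, 5.76% had it. At so few reads the separation of miR-200c* rests on a handful of counts per library. miR-429* had 4, 0 and 1 reads in wild type and 2, 0 and 0 in Adar2-/-, where a count of 0 allows up to 0.125 to 0.132 RPM, taken as 3 reads per library.

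**Figure D1:**
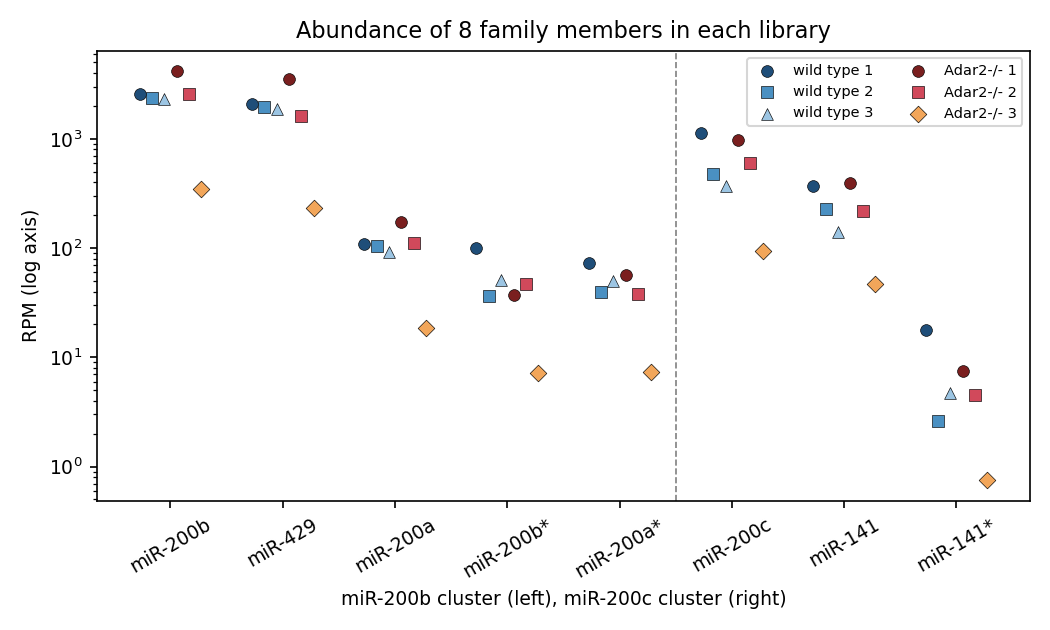
Abundance of 8 family members, in RPM on a log axis, with 1 point per library and the miR-200b cluster to the left of the dashed line. Adar2-/- replicate 3 is the lowest point for each of the 8, for example 348 RPM for miR-200b against 2326 to 4160 RPM in the other libraries.

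By mean level over the 6 libraries the guide strands ranked miR-200b (2390 RPM), miR-429 (1876), miR-200c (608), miR-141 (234) and miR-200a (102). This order held within each of the 6 libraries, although the spread of each miRNA over the libraries was larger than several of the steps. miR-200b exceeded miR-429 by 1.19- to 1.58-fold within a library, and miR-200c exceeded miR-141 by 2.03- to 3.08-fold. The next 2 members, miR-200b* (46.5 RPM) and miR-200a* (44.0), could not be ordered, since each was higher in 3 of the 6 libraries. Among all 1055 miRNAs miR-200b ranked between 32 and 128 and miR-200a between 148 and 338. Mature miRNAs have nearly the same length, but libraries capture different sequences with different efficiency, so these ranks describe reads.

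The question of the study was then put to each member. Genotypes were compared with edgeR's quasi-likelihood test over the 399 miRNAs with at least 100 reads in each library, with adjustment over all of them, and 7 of the 10 family members reached that minimum. Of these 7, 0 passed the threshold of 0.05, as did 0% of all miRNAs tested. At an unadjusted p under 0.05 the edgeR count was 0 of the 7 members and 13 of the 399 miRNAs. DESeq2 also called 0 of the 7, with adjusted p from 0.499 for miR-200b* to 0.996. The lowest unadjusted DESeq2 p among the 7 was 0.060, for miR-200b*. The DESeq2 share over all 399 miRNAs is not given here, so its 0 of 7 has no background beside it. With no minimum of reads, edgeR gave miR-200c* a log2 fold change of −2.07 with an unadjusted p of 0.0129 and an adjusted p of 0.988.

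The log2 fold change of Adar2-/- against wild type was −0.035 (standard error 0.656) for miR-200b, −0.13 (0.698) for miR-429 and −0.0027 (0.609) for miR-200a. In the other cluster it was −0.25 (standard error 0.707) for miR-200c and −0.15 (0.644) for miR-141. The differences of the guide strands were thus well below their standard errors, and those of miR-200a and miR-200b turned to 0.086 and 0.063 with TMM factors. miR-200b* had the most negative value, −1.04 (standard error 0.624), followed by miR-200a* with −0.68 (0.603). The edgeR adjusted p of the 7 members ran from 0.988 to 0.999. The median over the 7 was −0.15, against 0.0023 over all 399, and the median standard error was 0.644 against 0.369.

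Without Adar2-/- replicate 3 the fitted values of the 5 guide strands all turned positive, from 0.25 for miR-200c to 0.49 for miR-200a, while miR-200b* and miR-200a* stayed below 0 at −0.57 and −0.20. The median over the 7 was then 0.33, against −0.063 over all 399. The edgeR adjusted p was 0.995 for each of the 7 in that fit. The median standard error of the members was then 0.459, nearly that of all 399 miRNAs, 0.456. Leaving out wild-type replicate 1 instead put miR-200c at 0.41, miR-141 at 0.27, miR-200a at 0.050 and miR-200b at 0.016, while miR-429 stayed below 0 at −0.097. In that fit miR-200b* stood at −0.53 and miR-200a* at −0.40, and without Adar2-/- replicate 1 miR-200a* stood at −1.25. The direction of each guide strand between genotypes therefore turned on single brains, that of miR-429 on Adar2-/- replicate 3.

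**Figure D2:**
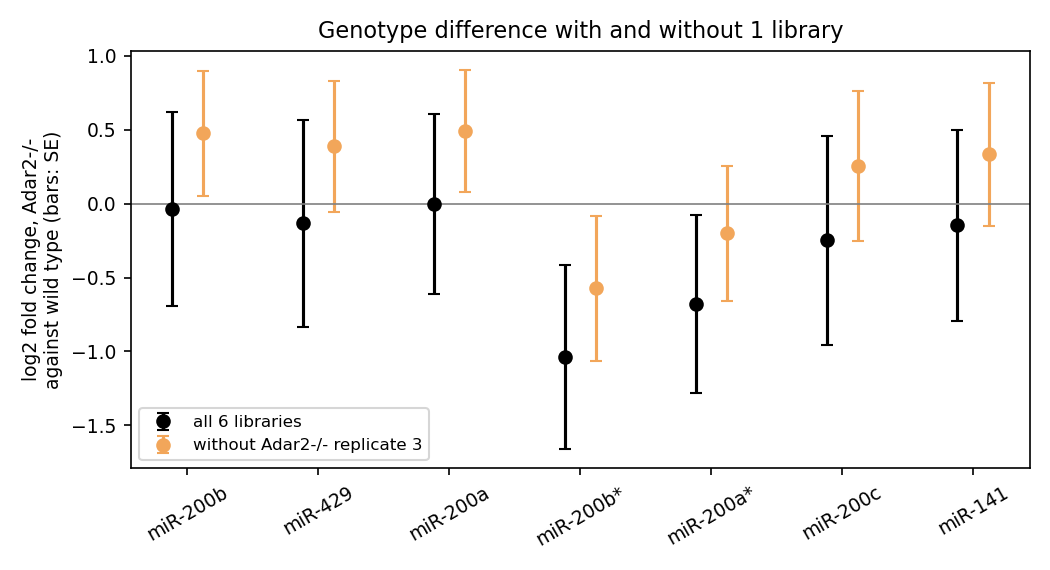
edgeR log2 fold change of Adar2-/- against wild type for the 7 tested members, with bars of 1 standard error, from all 6 libraries and without Adar2-/- replicate 3. The guide strands lie near 0 with all libraries and between 0.25 and 0.49 without that library, and miR-200b* and miR-200a* lie below 0 in both.

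A second criterion asked whether Adar2-/- lay on the same side of wild type under every replicate number. Of the 7 members 1 met it, miR-200a*, with Adar2-/- divided by wild type at 0.767, 0.961 and 0.149 in replicates 1 to 3, whereas 16% of all 399 miRNAs met it. For 0 of the 7 did the genotypes separate without overlap, against 5.76% of all 399. In replicate 3 the ratio of the family sum was 0.154, in replicate 2 it was 1.01 and in replicate 1 it was 1.44. Each replicate number thus gave another direction or size.

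How far Adar2-/- replicate 3 differed was measured as its RPM divided by the median of the other 5 libraries, a comparison made because the values had been seen. The ratio was 0.117 for miR-429, 0.135 for miR-200b and 0.172 for miR-200a. It was 0.149 for miR-200a* and 0.153 for miR-200b*, so guide and star strands of this cluster stood at like fractions. In the miR-200c cluster it was 0.155 for miR-200c and 0.205 for miR-141, and the clusters as sums stood at 0.136 and 0.170. The median over all 399 miRNAs was 1.15.

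For all 7 members this library had the lowest level of the 6, which held for 34 of the 399 miRNAs (8.52%). The 9 lowest ratios among the 399 were those of the 7 members and of miR-183 (0.139) and miR-182 (0.159). The next was miR-96 at 0.308, and miR-2145 followed at 0.460. miR-183, miR-96 and miR-182 form the cluster known from sensory organs such as retina, inner ear and olfactory epithelium.

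**Figure D3:**
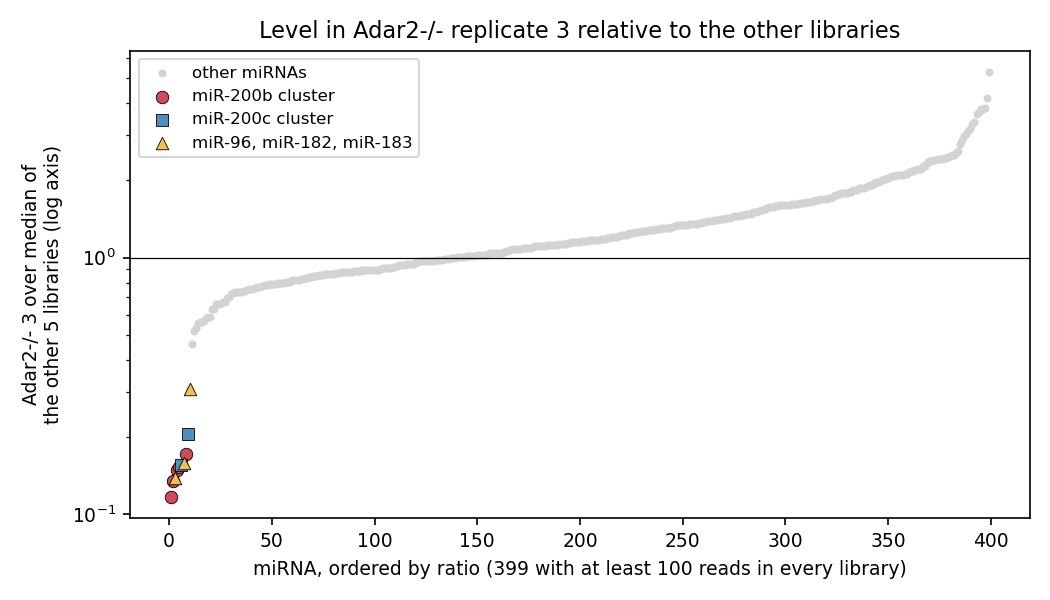
RPM in Adar2-/- replicate 3 divided by the median of the other 5 libraries, on a log axis, for the 399 miRNAs tested, ordered by that ratio. The family members lie at 0.117 to 0.205, next to miR-183, miR-182 and miR-96, and apart from the rest.

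Other miRNAs that mark cells or tissues were read beside the family. The sensory list of miR-96, miR-182 and miR-183 summed to 113581, 155374 and 108156 RPM in wild type and to 186903, 89664 and 19158 RPM in Adar2-/-, and so had its highest and lowest levels in the same libraries as the family. The list of other epithelial miRNAs did not follow. miR-203, miR-205, miR-192, miR-194 and miR-215 together ran from 2067 RPM in Adar2-/- replicate 1 to 4703 RPM in Adar2-/- replicate 2, with 3268 RPM in Adar2-/- replicate 3. miR-203, which is abundant in skin, stood at 101 RPM there, 1.11 of the median of the other libraries. miR-124 stood at 25453 RPM in Adar2-/- replicate 3, 1.88 of the median of the others, miR-128 at 2.89 of it and miR-9 at 0.898, and the 3 together at 1.01. The part of tissue composition in the level of the family was not tested.

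The choroid plexus list, led by miR-204, was 1.53 of the median of the others in Adar2-/- replicate 3, the blood list, led by miR-451, was 0.853 and the endothelial list, miR-126-3p and miR-126-5p, 0.789. Of their members miR-204, miR-451 and both arms of miR-126 passed the minimum of 100 reads. miR-211, miR-449a, miR-144 and miR-223 did not, although each had reads in every library. On the same measure miR-211 stood at 0.692 and miR-449a at 2.28, against 1.53 for miR-204. miR-144 stood at 1.02 and miR-223 at 1.69, against 0.849 for miR-451. The choroid plexus and blood sums thus follow their leading miRNA, and their members did not all go 1 way. The neuroendocrine list of miR-375, miR-7a and miR-7b was 2.47 of the median of the others in Adar2-/- replicate 3, the highest such value of the lists, with miR-7a at 2.52, miR-7b at 2.41 and miR-375 at 0.740. Summed, this list was 7459 RPM in wild-type replicate 1, 4714 RPM in Adar2-/- replicate 3 and 1289 to 3205 RPM in the other libraries, and miR-375 alone was 3294 RPM in wild-type replicate 1 against 42.9 to 113 RPM. Wild-type replicate 1 was also the wild-type brain with the most of each family member. Among the guides the excess was large for miR-200c (1140 against 473 and 366 RPM) and miR-141 (370 against 227 and 140 RPM). It was small for miR-200b (2586 against 2345 and 2326 RPM). Whether the high neuroendocrine list of that brain had a part in these levels was not tested.

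The miRNAs whose log2 RPM followed the log2 family sum most closely over the 6 libraries were miR-183 (Pearson's r = 0.969) and miR-182 (r = 0.923), and miR-96 was the seventh (r = 0.729). Between them stood miR-3066 (r = 0.788), miR-666-5p (r = 0.783), miR-2145 (r = 0.774) and miR-125b-1-3p (r = 0.738), and miR-181c*, miR-2137 and miR-543* completed the first 10 with r of 0.633 to 0.702. All values share the library totals. Much of this likeness rested on 1 library, since without Adar2-/- replicate 3 the r of miR-183 was 0.487 and that of miR-182 was 0.678, and 3 of the first 10 were still among the first 10.

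The 2 clusters were then compared within libraries, where the total cancels. The miR-200b cluster had 3.22, 6.40 and 8.57 reads per read of the miR-200c cluster in wild type and 5.79, 5.28 and 4.33 in Adar2-/-. The highest and lowest balance both occurred in wild-type brains, and all Adar2-/- values lay between them. The log2 ratio averaged 2.49 ± 0.72 for wild type and 2.35 ± 0.21 for Adar2-/- (SD, n = 3 each), so that the difference of −0.14 was smaller than the spread in either genotype. Without Adar2-/- replicate 3 it was −0.022, without wild-type replicate 3 it was 0.17 and without wild-type replicate 1 it was −0.54. In the last case the remaining wild-type ratios, 6.40 and 8.57, lay above all Adar2-/- values. The overlap of the genotypes in this ratio thus rested on wild-type replicate 1. The miR-200c cluster made up 23.7% of the family's reads in wild-type replicate 1, 10.5% in wild-type replicate 3 and 13.5% to 18.8% in the other libraries.

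As sums, the miR-200b cluster averaged 4601 ± 292 RPM for wild type and 4316 ± 3664 RPM for Adar2-/- (SD, n = 3 each). The miR-200c cluster averaged 914 ± 541 and 782 ± 617 RPM. In wild-type brains the larger cluster hence varied little, and the smaller one had an SD in RPM near that of its own Adar2-/- values. In proportion its Adar2-/- values spread wider, from 142 to 1372 RPM, against 511 to 1529 RPM in wild type. Without Adar2-/- replicate 3 the ratios of Adar2-/- to wild-type means moved from 0.938 to 1.34 and from 0.855 to 1.21. Within replicate number 1 Adar2-/- divided by wild type was 1.61 for the miR-200b cluster and 0.897 for the miR-200c cluster.

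The guide strands were next grouped by seed. Guide strands with AAUACUG had 12.1, 14.5 and 19.6 reads per read of those with AACACUG in wild type and 15.1, 14.4 and 10.3 in Adar2-/-. The log2 ratio was 3.92 ± 0.35 in wild type and 3.71 ± 0.30 in Adar2-/- (SD, n = 3 each), a difference of −0.20 that lay within the spread, and of −0.03 without Adar2-/- replicate 3. Within the miR-200b cluster the ratio was far steeper, at 41.6 to 45.3 in wild type and 30.9 to 44.2 in Adar2-/-, than within the miR-200c cluster, at 2.09 to 3.08 and 2.03 to 2.75. In each cluster the lowest of the 6 values was that of Adar2-/- replicate 3, where miR-200a and miR-141 were less far below the other libraries than their partners. Without that library the Adar2-/- values were 37.4 to 44.2 within the miR-200b cluster and 2.43 to 2.75 within the miR-200c cluster.

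**Figure D4:**
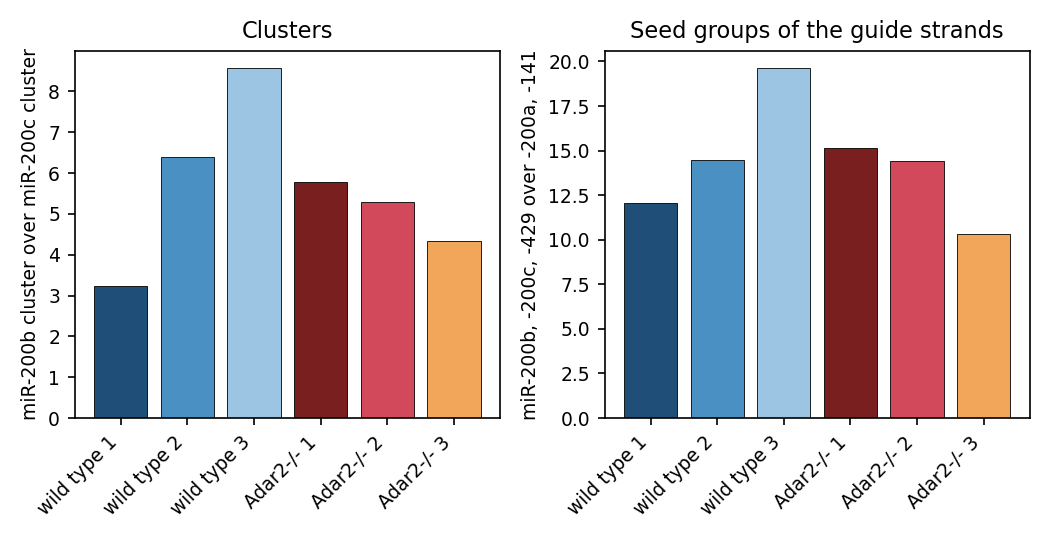
Reads of the miR-200b cluster per read of the miR-200c cluster (left) and reads of the AAUACUG guide strands per read of the AACACUG guide strands (right) in each library. The cluster ratio runs from 3.22 in wild-type replicate 1 to 8.57 in wild-type replicate 3, with the Adar2-/- libraries at 4.33 to 5.79.

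Over the 6 libraries, guide strands of the same cluster varied together more closely than those that share a seed across clusters. The SD over the 6 libraries of the log2 ratio of 2 guides was 0.15 for miR-200a and miR-200b, 0.18 for miR-200b and miR-429, 0.23 for miR-141 and miR-200c and 0.30 for miR-200a and miR-429. For the 6 pairs from different clusters it ran from 0.39 to 0.55. miR-200b and miR-200c, which share a seed and differ at 2 of 22 positions, had an SD of 0.50, and miR-200a and miR-141 one of 0.39. The median over all 79401 pairs of the 399 miRNAs was 0.60. Pairs share members and libraries, so these values describe the 6 brains. Without Adar2-/- replicate 3 the SD ran from 0.061 to 0.21 for the 4 pairs within a cluster and from 0.42 to 0.58 for the 6 pairs between clusters. No SD was computed without wild-type replicate 1, which had the lowest cluster ratio, 3.22 against 4.33 to 8.57 in the other libraries. In wild-type replicates 2 and 3 and then Adar2-/- replicates 1 to 3, miR-200a stood at 104, 92.5, 174, 112 and 18.7 RPM. In the same order miR-200c stood at 473, 366, 967, 607 and 94.2 RPM and miR-429 at 1970, 1858, 3512, 1626 and 231 RPM. There miR-200a kept closer to miR-200c of the other cluster than to miR-429 of the same cluster. Closer variation within a cluster thus did not hold for each pair without wild-type replicate 1, and for the pairs as a set it was not tested.

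**Figure D5:**
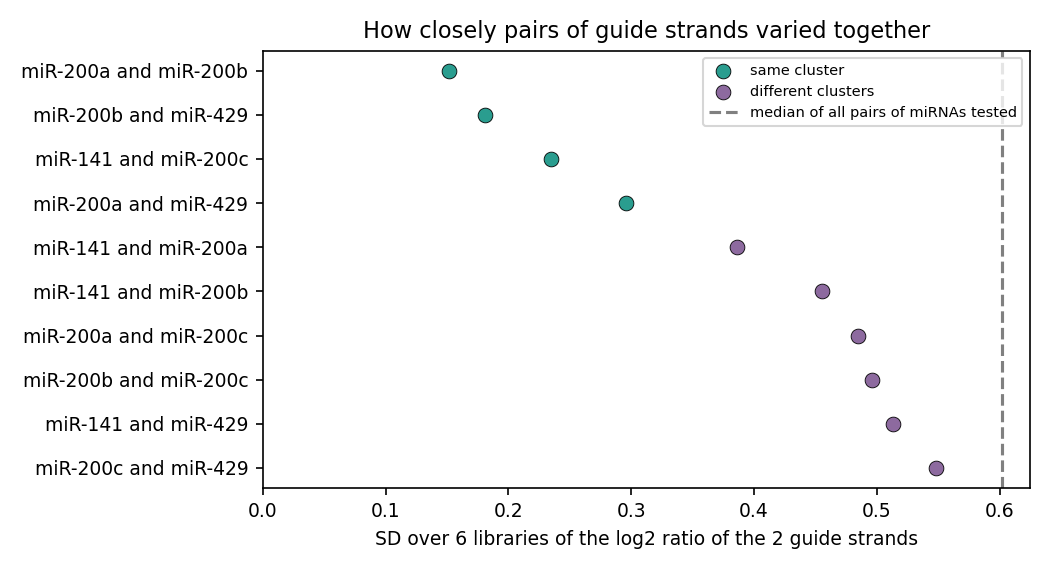
SD over the 6 libraries of the log2 ratio of 2 guide strands, for the 10 pairs of the 5 guides, with the median of all pairs of miRNAs tested as a dashed line at 0.60. The 4 pairs within a cluster lie at 0.15 to 0.30 and the 6 pairs between clusters at 0.39 to 0.55.

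Finally, star strands were set against the guides of the same hairpin. For each read of miR-200a there were 0.672, 0.381 and 0.536 reads of miR-200a* in wild type and 0.324, 0.338 and 0.395 in Adar2-/-. Of the hairpins compared here this one had the largest star share, and the genotypes overlapped through wild-type replicate 2. For each read of miR-200b there were 0.0387, 0.0156 and 0.0219 reads of miR-200b* in wild type and 0.00886, 0.0183 and 0.0208 in Adar2-/-. For miR-141, whose star strand fell short of the minimum with as few as 18 reads, the ratio was 0.0478, 0.0116 and 0.0339 in wild type and 0.0188, 0.0206 and 0.0162 in Adar2-/-.

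On the log2 scale the difference of Adar2-/- minus wild type was −0.56 for miR-200a, −0.66 for miR-200b and −0.53 for miR-141, with an SD of 0.41 against 0.15, 0.66 against 0.66 and 1.06 against 0.17 in wild type and Adar2-/- (n = 3 each). The genotypes overlapped in all 3 hairpins, and without Adar2-/- replicate 3 the differences were −0.64, −0.89 and −0.44. For miR-200a the genotypes then no longer overlapped, as for 15.1% of the 73 hairpins with both strands tested, against 12.3% with all libraries. Without wild-type replicate 1 the differences were −0.37, −0.30 and −0.11, without Adar2-/- replicate 1 that of miR-200b was −0.28, and without wild-type replicate 2 that of miR-141 was −1.13. In each of these hairpins the highest star share belonged to wild-type replicate 1. That library had the highest ratio of star to guide for 39.7% of the 73 hairpins, and its median deviation from the hairpins' medians was 0.21 on the log2 scale, against −0.09 to 0.10 in the others. The deviation was 0.79 for miR-200a and 0.99 for miR-200b there. In Adar2-/- replicate 1 miR-200b* was lowest against its guide, 1.14 below the hairpin's median on the log2 scale. Star shares of miR-200a and miR-200b in Adar2-/- replicate 3 were 0.027 and 0.090 above their medians on the same scale, so the balance of the strands lay near the middle of the libraries where the level of both was lowest.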

How the data were processed

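The authors deposited 3 tables of raw read counts, each with the reads on 1055 mature miRNAs for 1 wild-type and 1 Adar2-/- library. According to the methods, they clipped adaptors from 36 bp reads with Cutadapt, mapped them with NextGenMap to miRBase release 16, dropped reverse-strand hits and gave weights to multiply mapped reads. How the weights became whole numbers is not given in the sources used here. Blank lines (12) were dropped, and columns were assigned by genotype and table number. RPM used the total mapped miRNA reads.

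edgeR 4.0.16 in R 4.3.3 (glmQLFit, glmQLFTest) was run on the miRNAs that had 100 reads or more in all libraries, with the totals as library size, no block, Benjamini-Hochberg adjustment and a two-sided threshold of 0.05, after a test on simulated data. A standard error is the fold change divided by the root of F. DESeq2 1.42.0 was an alternative. Sums and ratios over members carry no test. Wilson intervals are at 95%.

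Named are all members, the 10 miRNAs most like the family sum by Pearson's r, and the marker lists. Members and lists were chosen with earlier results of these data known. Plain names were matched to RefSeq 3p arms and star names to 5p arms. Python 3.11.15, pandas 2.3.3 and matplotlib 3.10.9 did the rest. Editing levels were not analysed here.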

Additional observations from a re-analysis of the deposited data

How the results depend on the processing

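The count of members past the threshold was 0 under each of the 16 alternatives, the replicate block included. Replicate numbers gave no sign of pairing the brains. Deviations of same-numbered libraries correlated at −0.076 to −0.001, and 0 of 6 libraries correlated best with their own number. edgeR called 0 of all miRNAs with and without the replicate block, which cannot show whether the brains are paired. Under the block miR-200b stood at −0.55 and miR-429 at −0.76.

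Scaling turned values near 0. miR-200a (−0.0027) was 0.086 with TMM factors, 0.073 without the 5 most abundant miRNAs in the total and 0.056 with DESeq2, miR-200b (−0.035) was 0.063, 0.052 and 0.035, and the log2 ratio of the miR-200b cluster sums (−0.092) was 0.012 with TMM factors and 0.0043 without the 5. With medians of the libraries that of the miR-200c cluster (−0.23) was 0.25. With no minimum of reads, 2 of 10 members kept 1 direction and 1 separated the genotypes, as did 19.7% and 7.58% of the 1042 miRNAs with a read.

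With 1 library or replicate number left out, log2 fold changes ran from −0.88 to 0.33 for miR-141, −0.63 to 0.49 for miR-200a, −0.73 to 0.48 for miR-200b, −0.91 to 0.41 for miR-200c and −1.08 to 0.39 for miR-429, but stayed below 0 for miR-200a* (−1.25 to −0.20) and miR-200b* (−1.78 to −0.53). Without wild-type replicate 1, miR-200c was at 0.41, miR-141 at 0.27 and the miR-200c cluster sum at 0.37, and without wild-type replicate 2 miR-200a was at 0.012. The cluster sums ran from −0.88 to 0.42 and −0.91 to 0.37, the difference in cluster ratio from −0.63 to 0.28, in seed ratio from −0.47 to 0.16 and and in star share from −1.10 to 0.077 for miR-200b, −0.78 to −0.31 for miR-200a and −1.21 to −0.11 for miR-141. With 2 replicate numbers left, 3 of 7 members kept 1 direction in each case, against 62.4%, 44.9% and 24.8% of the 399 miRNAs without replicate 1, 2 and 3, and 2, 1 and 1 members separated the genotypes, against 53.4%, 27.3% and 14%. The cause was not tested. For members with at least 100 reads the spread between libraries exceeded the counting error, and for miR-200c* and miR-429* depth was too low to compare.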
